A study of Mus musculus with 4 samples.

Results

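The genes described here encode the Polycomb repressive complexes and the enzymes that undo their histone marks. They were chosen by name as 36 genes, a list of PRC2, canonical and variant PRC1, H3K27 demethylase and H2A deubiquitinase subunits, out of 17762 genes listed in at least 1 library. All 36 were listed in all 4 libraries and passed the filter on low counts that left 12769 genes for testing.

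Polyadenylated RNA came from adenomas of C57BL/6 mice aged 110 days, labelled as colon adenoma. All mice carried the ApcMin allele, a germline mutation of the tumour suppressor gene Apc that gives rise to intestinal tumours. Of the libraries, 2 came from mice labelled Strap KO and 2 from mice labelled Strap WT. The design text calls the KO mice StrapIEKO, and no source used here gives the promoter that drove the deletion, the deleted exons or the number of animals per library. The labels do not say that libraries of 1 group came from separate animals, so p-values measure only the spread between these libraries.

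Polycomb repressive complex 2 (PRC2) places methyl groups on lysine of histone H3 at the site called H3K27, a mark of silenced developmental genes. Polycomb repressive complex 1 (PRC1) ubiquitinates histone H2A. Its canonical form reads the PRC2 mark through chromobox (CBX) proteins, and its variant forms reach chromatin through other subunits, such as the CpG-binding protein KDM2B. The KDM6 demethylases and the H2A deubiquitinases remove these marks. In the intestine, Polycomb activity is known to sustain crypt progenitors and to keep genes of other lineages off. The STRAP protein has been linked to PRC2 assembly in human colorectal cancer cells, which gives the question asked of these genes: whether transcripts of the Polycomb machinery differ when Strap is targeted.

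The upstream sequences of Suz12 and Pcgf2 are shown because these genes had among the smallest p-values of the list, lay in opposite directions in KO and each had 1 start in the table of upstream windows. Both are on chromosome 11. The sequences are the 250 bases before that start, from RefSeq on GRCm38.p6, the assembly called mm10, 5′ to 3′ on the strand of the gene. The Suz12 window is chr11:79992856-79993105 on the plus strand and the Pcgf2 window is chr11:97699649-97699898 on the minus strand, inside the annotated span of the gene, which runs further upstream. Gene coordinates below are on the same assembly. Capitals mark matches to the motifs searched.
Suz12: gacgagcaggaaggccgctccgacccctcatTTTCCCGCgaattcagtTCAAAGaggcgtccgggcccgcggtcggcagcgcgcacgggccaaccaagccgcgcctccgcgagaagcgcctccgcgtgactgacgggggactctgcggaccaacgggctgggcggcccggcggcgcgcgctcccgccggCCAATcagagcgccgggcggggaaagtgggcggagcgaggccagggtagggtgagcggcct
Pcgf2: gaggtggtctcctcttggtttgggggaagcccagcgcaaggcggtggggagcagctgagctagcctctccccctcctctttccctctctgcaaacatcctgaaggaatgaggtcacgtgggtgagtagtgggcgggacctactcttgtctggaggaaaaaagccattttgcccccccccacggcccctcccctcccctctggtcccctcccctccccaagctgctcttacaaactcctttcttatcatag

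The motifs searched on both strands were TTTNNCGC for E2F factors, CCGGAAG for ETS factors, CTTTGA for TCF/LEF factors, CCAAT, and patterns for NRF1 and for interferon response elements. The Suz12 window had 1 match each to the E2F, TCF/LEF and CCAAT letters, which do not overlap, and the Pcgf2 window had 0 matches to any of them. The windows differed in base composition, with 73.6% G and C in Suz12 and 59.6% in Pcgf2. As the Pcgf2 window lies inside the annotated span of its gene, the windows may not cover like regions of the genes. The table of upstream windows matched 31 of the 36 genes, with 44 starts. Among these starts 13.6% held the NRF1 pattern, against 3.74% of all 32851 starts, and 6.82% held the E2F letters, against 4.28%. The interferon response pattern was in 4.55% of the starts of the list and 2.98% of all starts, the TCF/LEF letters in 6.82% and 13.8%, the ETS letters in 6.82% and 6.91%, and CCAAT in 31.8% and 33.8%. In the list the interferon pattern was matched at 2 starts of 1 gene, Bcor, whose windows overlap. These matches describe letters alone.

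Strap stood at 7.4 and 10 FPKM in KO replicates 1 and 2, against 61.2 and 43.8 FPKM in WT replicates 1 and 2. FPKM is a level per length of transcript and size of library, so it can be set side by side between genes. Strap in KO was at 16.9% of its WT level, with an adjusted p of 0.0942 in edgeR's quasi-likelihood test and 8.42e-14 in DESeq2. Libraries held 14084814 to 15640931 expected counts in all. The epithelial markers Epcam, Cdh1, Krt8, Krt18, Vil1 and Cdx2 summed to between 3717 and 5009 FPKM per library. Krt8 was the highest of them in each library. Within this list Krt18 had 247 and 210 FPKM in KO and 451 and 405 FPKM in WT (adjusted p = 0.251 in edgeR and 0.0258 in DESeq2), and Cdh1 was also lower in both KO libraries, at 208 and 221 FPKM in KO and 257 and 253 FPKM in WT. Epcam, Krt8, Vil1 and Cdx2 overlapped between the groups, with log2 fold changes of -0.06, -0.09, 0.07 and 0.22. Of the colon markers Car1, Aqp8, Hoxb13, Insl5 and Hoxd13, 4 stayed under 1 FPKM in every library and Car1 reached at most 3.81 FPKM, while the small intestine list summed to 10748 FPKM or more in every library, against the label. The small intestine genes did not go one way, and WT replicate 2 stood apart in Fabp6, Defa24, Gata4 and Lct. Fabp6 had 5605 FPKM there, against 1860 and 279 FPKM in KO and 952 FPKM in WT replicate 1, and Defa24 was also highest there. Gata4 had 43.5 and 51.4 FPKM in KO and 40.4 and 8.25 FPKM in WT, and Lct had 103 and 155 FPKM in KO and 85.2 and 26.2 FPKM in WT, so both were lowest in WT replicate 2. Apoa1 was highest in WT replicate 1, with 5031 and 4642 FPKM in KO and 8641 and 2889 FPKM in WT. Sis was low in KO replicate 1 and WT replicate 2, with 360 and 821 FPKM in KO and 814 and 341 FPKM in WT. Fibroblast, smooth muscle and enteric neuron and glia markers were at or near 0, with no gene over 1.91 FPKM. Of 4 endothelial markers, Pecam1, Kdr and Vwf stayed under 1 FPKM in every library, while Cdh5 had 0 and 0.02 FPKM in KO and 9.1 and 0.17 FPKM in WT, which sets WT replicate 1 apart (adjusted p = 0.226 in edgeR and 0.0345 in DESeq2). No macrophage marker exceeded 4.21 FPKM, and Lyz2 was lower in KO, with 0.91 and 1.53 FPKM in KO and 2.21 and 4.21 FPKM in WT. T and natural killer cell markers stood apart in KO replicate 2, where they summed to 288 FPKM, against 27 FPKM in KO replicate 1 and 49.3 and 32.2 FPKM in WT. B cell markers did not set that library apart, with sums of 1.98 and 7.21 FPKM in KO and 6.37 and 2.21 FPKM in WT. The part of these differences between libraries in the results was not tested.

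KO and WT also differed by transcript length. Over all genes tested, transcripts under 1000 bases had a median log2 fold change of 0.43, and transcripts over 6000 bases had a median of -0.30. KO replicate 1 carried most of this. Its median log2 ratio to the mean of WT ran between 0.64 for the shortest and -0.46 for the longest transcripts, and that of KO replicate 2 ran between 0.15 and -0.12. WT replicate 1 over WT replicate 2 went the other way, between -0.15 and 0.15. The genes of the list had a median transcript length of 3662 bases, against 2809 bases for all genes tested. Beside many fold changes below stands the value from a fit with a length offset, which removes the trend on length in each library and was chosen after seeing the data.

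**Figure D1:**
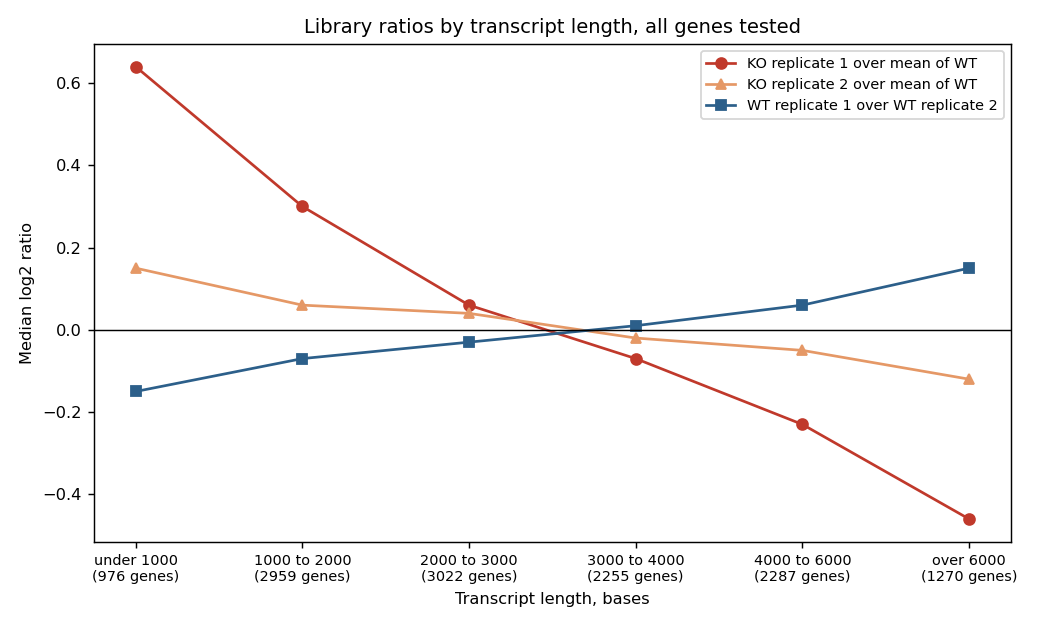
Median log2 ratio between libraries (y axis) for all genes tested, in 6 bins of transcript length in bases (x axis), with the number of genes per bin. KO replicate 1 over the mean of WT slopes down between 0.64 and -0.46, KO replicate 2 over the mean of WT between 0.15 and -0.12, and WT replicate 1 over WT replicate 2 slopes up.

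Across the list, no gene differed between KO and WT past an adjusted p of 0.05 in edgeR's quasi-likelihood test. The count was 0 of 36, beside 0.00783% of all genes tested. At an unadjusted p under 0.05 there were 4 of 36, or 11.1% beside 15.8% of all genes tested. Of these, 2 were higher in KO, Suz12 and Phc2, beside 7.08% of all genes tested, and 2 were lower, Pcgf2 and Bcor, beside 8.69%. At an adjusted p under 0.1 the count was 0 of 36, beside 0.0705% of all genes tested. DESeq2 called 0 of 36, beside 5.03% of the genes it tested. With the length offset 0 were called, and 7 had an unadjusted p under 0.05, or 19.4% beside 16% of all genes tested. The added genes were Rybp, Bap1 and Rnf2.

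Fold changes in the list were of modest size. The median log2 fold change was -0.14, beside 0.00 for all genes tested, with a range between -0.91 for Pcgf2 and 0.71 for Phc2. The median size of change without its sign was 0.30 in the list and 0.36 over all genes tested. In scaled counts the KO libraries exceeded the WT libraries without overlap in 8 of 36 genes, or 22.2%, beside 25.5% of all genes tested. They lay under the WT libraries without overlap in 13 of 36, or 36.1%, beside 24.6% of all genes tested. In either direction this makes 21 of 36, or 58.3%, beside 50% of all genes tested. With the length offset these counts were 7 and 12, beside 24.7% and 25.4%, and the median was -0.08. For 21 of the 36 genes the 95% interval of the fitted fold change excluded a 2-fold difference in either direction. As these are bulk samples, fewer cells of a type and less RNA per cell cannot be told apart.

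**Figure D2:**
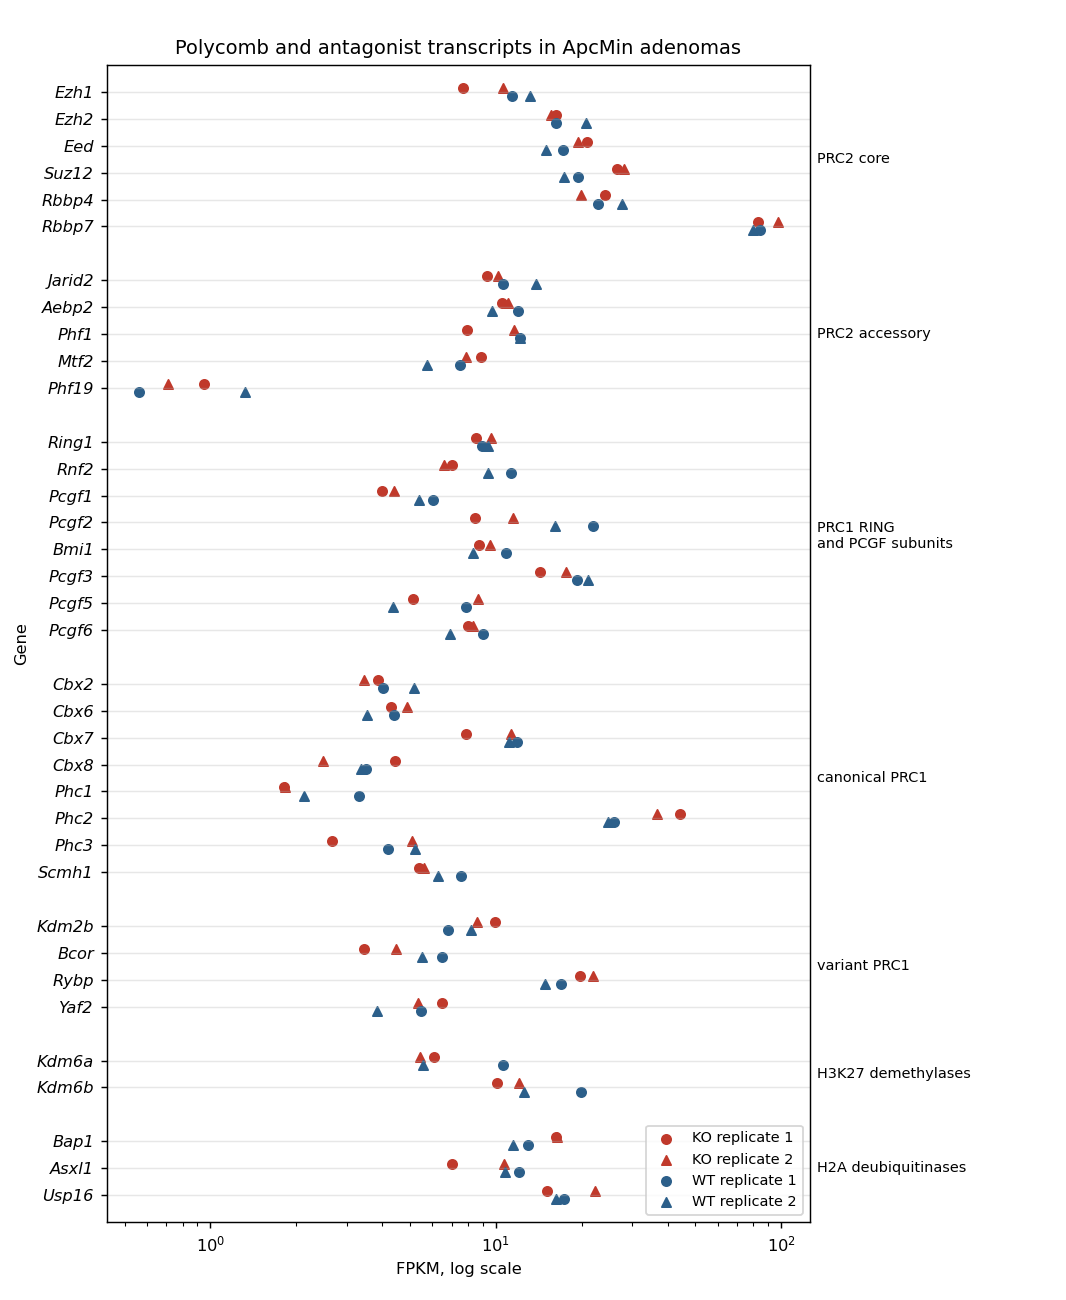
FPKM on a log scale (x axis) of the 36 genes by subcomplex, with 1 point per library (red KO, blue WT, circles replicate 1, triangles replicate 2). The red and blue points of Suz12, Phc2, Pcgf2 and Bcor do not overlap, while those of Rbbp4 and Rbbp7 do on this FPKM scale.

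The levels of the genes spanned a wide range. The highest was Rbbp7, a histone-binding protein that also serves other chromatin complexes, with a mean of 86.2 FPKM over the 4 libraries. Phc2 followed at 32.9 FPKM, then Rbbp4 at 23.6 and Suz12 at 22.9 FPKM, and these last 2 overlapped in their libraries. The lowest was Phf19 at 0.885 FPKM, the 1 gene under 1 FPKM in some library, with 32 counts in its lowest library. In every library 26 of the 36 genes exceeded 5 FPKM, and 4 genes, Cbx6, Cbx8, Phc1 and Phf19, stayed under 5 FPKM.

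Among the core subunits of PRC2, Suz12, Eed and Rbbp7 were higher in both KO libraries in scaled counts and Ezh1 was lower, while Ezh2 and Rbbp4 overlapped. Suz12, a scaffold that the enzyme needs for activity, lies on chromosome 11 from 79993106 to 80034123. It had 26.6 and 28.1 FPKM in KO replicates 1 and 2, against 19.5 and 17.4 FPKM in WT replicates 1 and 2. Both KO libraries stood above both WT libraries, and the KO libraries lay close together. Suz12 averaged 27.3 ± 1.07 FPKM in KO and 18.5 ± 1.47 FPKM in WT (SD, n = 2 each). Its log2 fold change was 0.60 (SE 0.19, 95% interval 0.13 to 1.07), with an adjusted p of 0.264 in edgeR. With the length offset the value was 0.72 and the adjusted p 0.207. Suz12 has a transcript of 4435 bases, and genes of 4000 to 6000 bases had a median log2 fold change of -0.15, so its direction was opposite to that of genes of like length.

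Eed, which binds trimethylated H3K27 and so lets PRC2 spread, had 20.9 and 19.5 FPKM in KO and 17.2 and 15 FPKM in WT. Its log2 fold change was 0.36 (SE 0.21, adjusted p = 0.450 in edgeR), or 0.24 with the length offset. The catalytic subunit Ezh2, on chromosome 6 from 47530274 to 47595270, had 16.2 and 15.6 FPKM in KO and 16.2 and 20.8 FPKM in WT. WT replicate 2 was high and the other 3 libraries were alike. Its log2 fold change was -0.18 with a 95% interval of -0.73 to 0.36, which excludes a 2-fold difference but not a smaller one. Ezh1, the paralog with weaker methyltransferase activity that is common in resting cells, had 7.65 and 10.6 FPKM in KO and 11.4 and 13.2 FPKM in WT, and its log2 fold change was -0.41 (SE 0.22, adjusted p = 0.409 in edgeR).

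Within the pair of enzymes, Ezh2 held 67.9% and 59.5% of the summed FPKM in KO and 58.7% and 61.1% in WT. KO replicate 1 was above both WT libraries and KO replicate 2 lay between them, and the exact two-sided permutation test over the 4 libraries gave p = 0.667, where 0.333 is the smallest it can give with 2 against 2. Proliferation markers, which often accompany Ezh2, summed to 431 and 397 FPKM in KO and 327 and 431 FPKM in WT, lowest in WT replicate 1. Their part in these levels was not tested.

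The histone-binding subunits had small fold changes. Rbbp4 had 24.2 and 19.9 FPKM in KO and 22.8 and 27.6 FPKM in WT, with a log2 fold change of -0.15, which came to -0.03 with the length offset. Rbbp7 had 83.1 and 97.7 FPKM in KO and 84.1 and 79.8 FPKM in WT, and overlapped in FPKM. In CPM, counts scaled by library size and TMM factor, it had 197 and 207 in KO and 184 and 174 in WT, which do not overlap, and its log2 fold change was 0.17 (95% interval -0.32 to 0.67). Summed over the 6 core genes, the level was 179 and 191 FPKM in KO and 171 and 174 FPKM in WT, and the median log2 fold change was 0.01.

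The accessory subunits decide where PRC2 goes. Mtf2, a Polycomb-like protein that binds unmethylated CpG islands, had 8.89 and 7.89 FPKM in KO and 7.49 and 5.75 FPKM in WT. Both KO libraries were above both WT libraries by a narrow margin, and its log2 fold change was 0.38 (SE 0.24, adjusted p = 0.486 in edgeR) and 0.50 with the length offset. Phf1, another Polycomb-like protein, had 7.95 and 11.6 FPKM in KO and 12.2 and 12.2 FPKM in WT, so KO replicate 1 was low (log2 fold change -0.30). The third of these proteins, Phf19, had 0.95 and 0.71 FPKM in KO and 0.56 and 1.32 FPKM in WT, and the WT libraries enclosed the KO libraries.

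Jarid2 and Aebp2 form the other class of PRC2, and Jarid2 can bind ubiquitinated H2A and so link the complexes. Jarid2 had 9.31 and 10.2 FPKM in KO and 10.6 and 13.8 FPKM in WT, with a log2 fold change of -0.31 that came to -0.12 with the length offset. Aebp2 had 10.5 and 11 FPKM in KO and 12 and 9.71 FPKM in WT, with a log2 fold change of -0.02, and 0.18 with the length offset. Over the 5 accessory genes 1 was higher and 4 were lower in KO, at a median of -0.13, and 0 of them had an unadjusted p under 0.05.

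**Figure D3:**
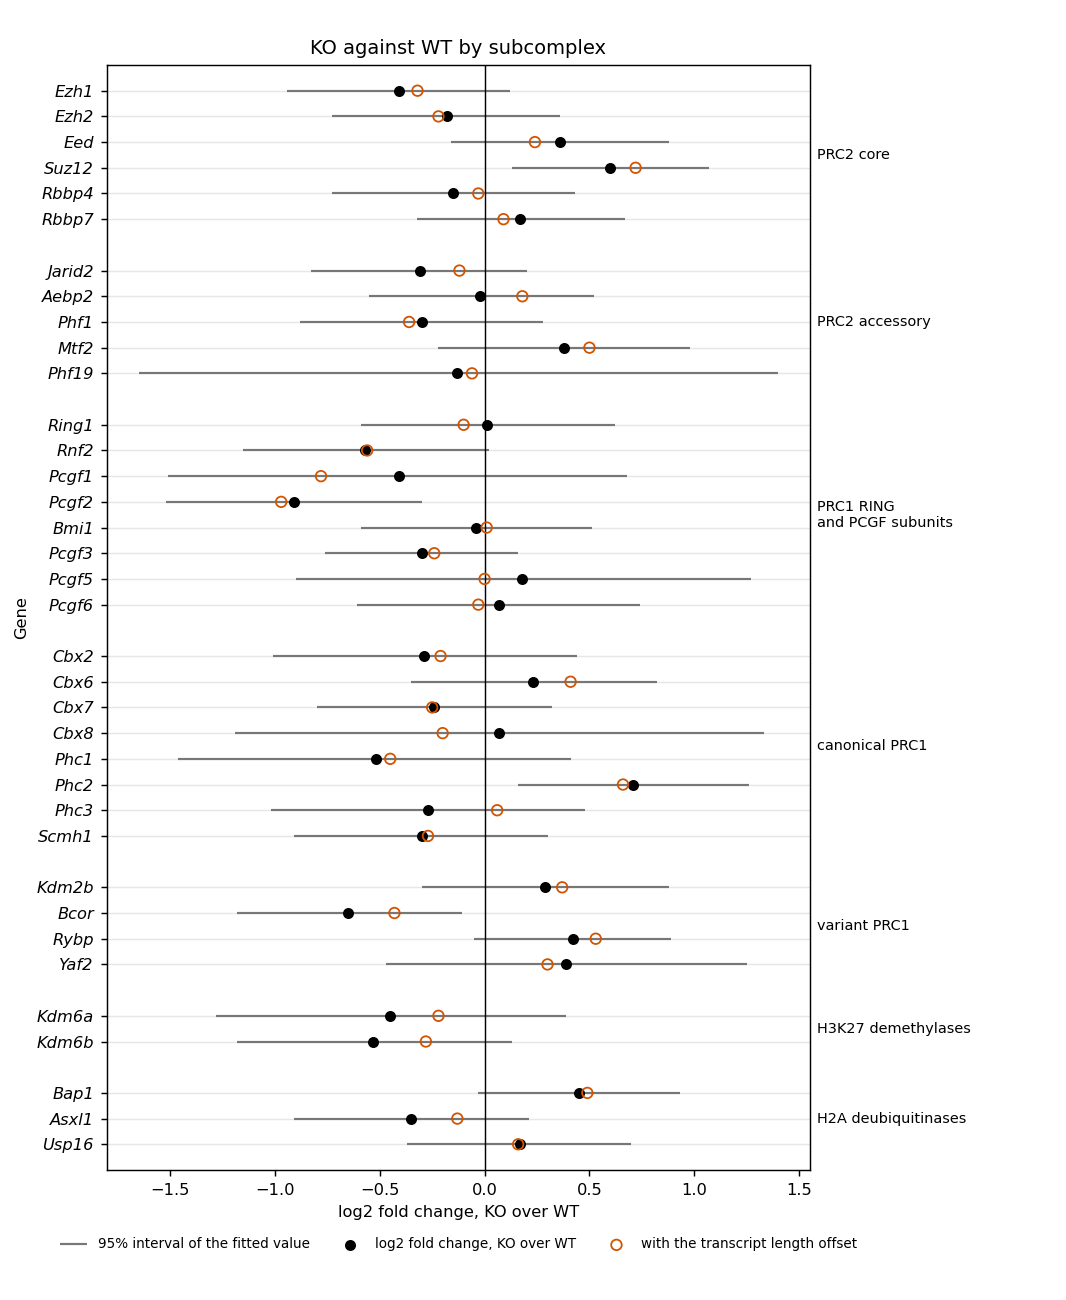
Log2 fold change of KO over WT (x axis) for the 36 genes by subcomplex. Filled points are fitted values, bars their 95% intervals and open circles the values with the transcript length offset. The intervals of Suz12, Phc2, Pcgf2 and Bcor do not reach 0, the lowest value being -0.91 in Pcgf2 and the highest 0.71 in Phc2, and none of the 36 passed the adjusted threshold.

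The catalytic heart of PRC1 pairs a RING ligase with a PCGF subunit. Rnf2, which encodes the ligase RING1B, lies on chromosome 1 from 151469398 to 151500991. It had 7.02 and 6.58 FPKM in KO, against 11.3 and 9.39 FPKM in WT. Both KO libraries were below both WT libraries. The fitted log2 fold change of Rnf2 was -0.57 (SE 0.24, 95% interval -1.15 to 0.02, adjusted p = 0.326 in edgeR), and -0.56 with the length offset. Between libraries of the same number, which no label pairs, the log2 ratio was -0.57 for replicates 1 and -0.56 for replicates 2. With 1 library left out the fitted value lay between -0.70 and -0.44. Its paralog Ring1, on chromosome 17, had 8.5 and 9.63 FPKM in KO and 8.93 and 9.41 FPKM in WT, with a log2 fold change of 0.01 (95% interval -0.59 to 0.62), which was -0.10 with the length offset.

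Rnf2 held 45.2% and 40.6% of the summed FPKM of the pair in KO and 55.8% and 49.9% in WT, so Ring1 was the more abundant in KO libraries and in WT replicate 2. The groups did not overlap, and the exact two-sided permutation test gave 0.333, the smallest p it can give here. Their summed level was 15.5 and 16.2 FPKM in KO and 20.2 and 18.8 FPKM in WT.

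The PCGF subunit defines the kind of PRC1. Pcgf2, which encodes MEL18 of canonical PRC1, lies on chromosome 11 from 97688821 to 97702434. It had 8.46 and 11.5 FPKM in KO, against 21.9 and 16.1 FPKM in WT. The KO libraries stood well below the WT libraries, and the spread within each group was wide. Pcgf2 averaged 9.98 ± 2.14 FPKM in KO and 19 ± 4.05 FPKM in WT (SD, n = 2 each). In KO it was at 53.3% of WT, which is -0.91 on the log2 scale (SE 0.25, 95% interval -1.52 to -0.30), with an adjusted p of 0.227 in edgeR and 0.0895 in DESeq2, the lowest that any gene of the list had in any setting. The length offset gave -0.97 with an adjusted p of 0.217. The ratio was -1.27 between the libraries numbered 1 and -0.53 between those numbered 2.

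Bmi1, the paralog that can take the place of Pcgf2 in canonical PRC1 and is known for stem cell self-renewal, overlapped between the groups. It had 8.71 and 9.54 FPKM in KO and 10.9 and 8.3 FPKM in WT, with a log2 fold change of -0.04 (95% interval -0.59 to 0.51) and 0.01 with the length offset. Of the summed FPKM of the 6 PCGF genes, Pcgf2 held 17.4% and 19.1% in KO and 29.2% and 26% in WT. Bmi1 held 17.9% and 15.9% in KO and 14.6% and 13.4% in WT. Neither share overlapped between groups, and each had an exact two-sided permutation p of 0.333, the smallest possible. Pcgf6 also held a larger share in both KO libraries, at 16.4% and 13.8% in KO and 12% and 11.2% in WT. Pcgf5 held 10.5% and 14.4% in KO and 10.5% and 7.02% in WT, and the shares of Pcgf1 and Pcgf3 overlapped. Shares of 1 sum are tied, so a lower share of Pcgf2 by itself raises the others. A larger share in KO was not particular to Bmi1, whose level overlapped between the groups.

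The other PCGF genes belong to variant PRC1. Pcgf1, the partner of BCOR and KDM2B, had 3.99 and 4.39 FPKM in KO and 6.05 and 5.38 FPKM in WT, and its log2 fold change was -0.41 (SE 0.45, adjusted p = 0.680 in edgeR). It has the shortest transcript of the list at 908 bases, and the length offset gave -0.78. Pcgf3 had 14.3 and 17.6 FPKM in KO and 19.2 and 21 FPKM in WT, also lower in both KO libraries, with a log2 fold change of -0.30. Pcgf5 had 5.11 and 8.66 FPKM in KO and 7.87 and 4.36 FPKM in WT, and Pcgf6, of a germline gene-silencing complex with MGA, had 7.99 and 8.31 FPKM in KO and 9 and 6.93 FPKM in WT. These last genes overlapped between the groups. Of the 8 RING and PCGF genes 5 were lower in KO, and the median log2 fold change was -0.17.

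**Figure D4:**
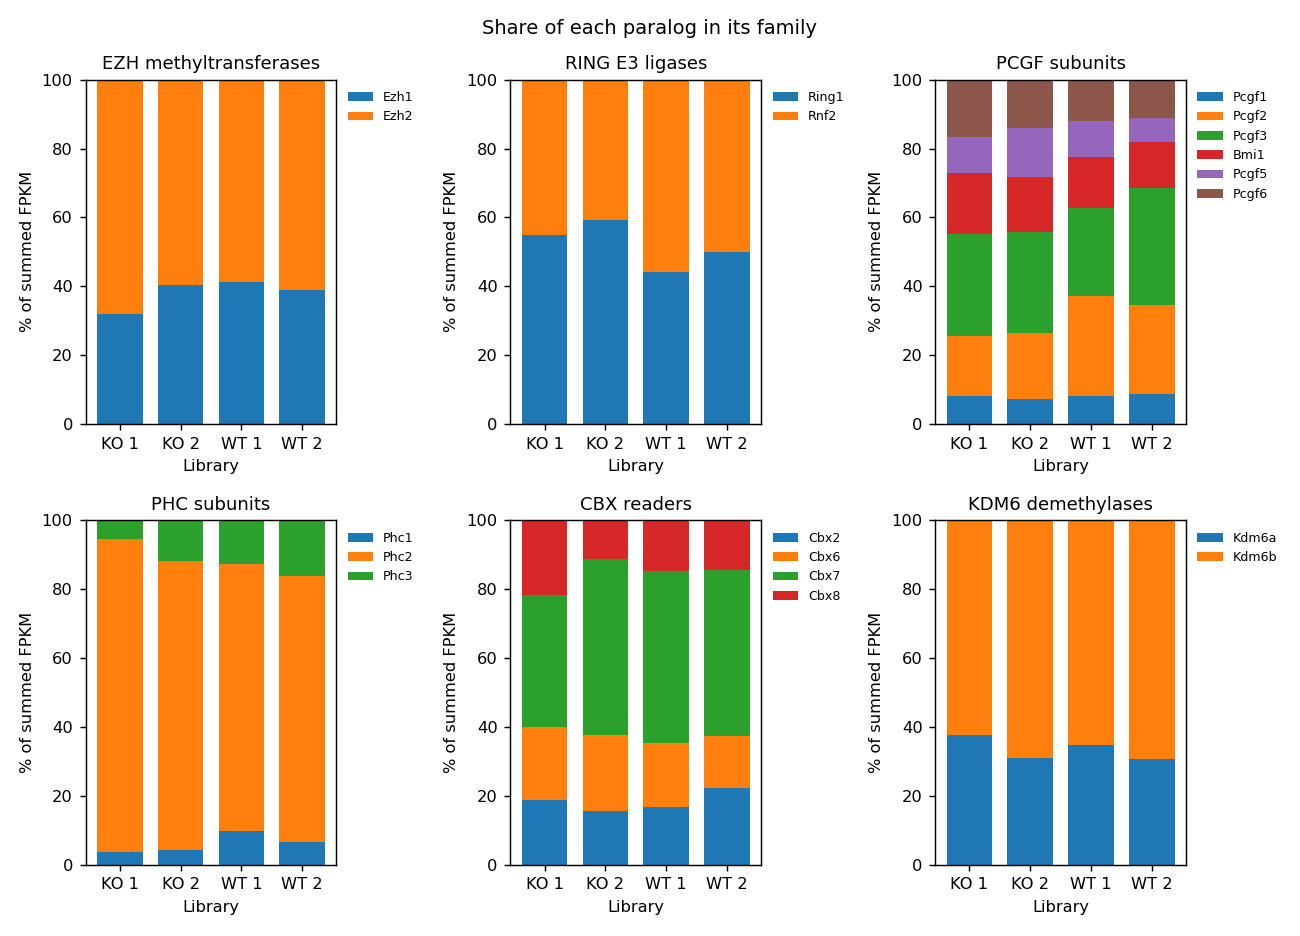
Share of each paralog in the summed FPKM of its family, in percent (y axis), for KO 1, KO 2, WT 1 and WT 2 (x axis), in 6 families. Pcgf2 takes 17.4% and 19.1% of the PCGF level in KO and 29.2% and 26% in WT, and Phc2 takes 90.8% and 84.1% of the PHC level in KO and 77.5% and 77.1% in WT. The shares carry no length offset.

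In canonical PRC1, the polyhomeotic (PHC) proteins join complexes into clusters through a polymerising domain. Phc2, on chromosome 4 from 128654655 to 128752881, had 44.3 and 36.7 FPKM in KO, against 25.9 and 24.8 FPKM in WT. Both KO libraries were above both WT libraries, and the WT libraries lay close together. Phc2 averaged 40.5 ± 5.32 FPKM in KO and 25.3 ± 0.792 FPKM in WT (SD, n = 2 each). This was 1.64-fold higher in KO, which is 0.71 on the log2 scale (SE 0.22, 95% interval 0.16 to 1.26), with an adjusted p of 0.260 in edgeR and 0.146 in DESeq2. The length offset gave 0.66.

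The other PHC genes were not higher in KO. Phc1 had 1.81 and 1.83 FPKM in KO and 3.31 and 2.13 FPKM in WT, lower in both KO libraries, and its log2 fold change was -0.52 (SE 0.38, adjusted p = 0.534 in edgeR). Phc3, with the longest transcript of the list at 11029 bases, had 2.67 and 5.09 FPKM in KO and 4.19 and 5.23 FPKM in WT, so that KO replicate 1 alone was low. Its log2 fold change of -0.27 came to 0.06 with the length offset. Phc2 held 90.8% and 84.1% of the summed PHC level in KO and 77.5% and 77.1% in WT, an exact two-sided permutation p of 0.333, the smallest possible. These shares carry no length offset, and Phc2 has a transcript of 2561 bases, far shorter than that of Phc3. The part of transcript length in the shares was not tested.

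The CBX genes, readers of the PRC2 mark, were low to moderate. In scaled counts Cbx7 was lower and Cbx6 higher in both KO libraries, while Cbx2 and Cbx8 overlapped between the groups. In FPKM Cbx2 was lower in both KO libraries and the other CBX genes overlapped. Cbx7, the most abundant of those listed, had 7.85 and 11.3 FPKM in KO and 11.9 and 11.1 FPKM in WT, and the fitted log2 fold change was -0.24 (95% interval -0.80 to 0.32). Cbx2 had 3.86 and 3.46 FPKM in KO and 4.03 and 5.16 FPKM in WT, a log2 fold change of -0.29. Cbx6 had 4.28 and 4.88 FPKM in KO and 4.41 and 3.53 FPKM in WT, a log2 fold change of 0.23. Cbx8 had 4.43 and 2.48 FPKM in KO and 3.5 and 3.36 FPKM in WT, with the KO libraries on either side of WT. Scmh1, a homologue of the fly gene Sex comb on midleg, had 5.37 and 5.61 FPKM in KO and 7.55 and 6.25 FPKM in WT, lower in both KO libraries, and its log2 fold change was -0.30 (adjusted p = 0.578 in edgeR). Over these 8 canonical genes the median was -0.25, with 3 higher and 5 lower.

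Among genes of variant PRC1, Rybp was higher in KO and Bcor lower. Rybp, which stimulates the ligase and binds ubiquitinated H2A, had 19.7 and 22 FPKM in KO, against 17 and 14.9 FPKM in WT. The groups did not overlap, and the log2 fold change was 0.42 (SE 0.19, adjusted p = 0.348 in edgeR), or 0.53 with the length offset. Its paralog Yaf2 had 6.46 and 5.36 FPKM in KO and 5.47 and 3.84 FPKM in WT, and its log2 fold change was 0.39 (SE 0.35). Rybp held 75.3% and 80.4% of the pair in KO and 75.6% and 79.5% in WT, so the share did not separate the groups.

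Bcor, the BCL6 corepressor that joins the PCGF1 complex, is X-linked, from 12036737 to 12160516. It had 3.44 and 4.48 FPKM in KO, against 6.46 and 5.5 FPKM in WT. Both KO libraries were below both WT libraries. Bcor was at 63.9% of WT in KO, which is -0.65 on the log2 scale (SE 0.22, 95% interval -1.18 to -0.11, adjusted p = 0.271 in edgeR). Its transcript averaged 6354 bases, and genes over 6000 bases had a median of -0.30. With the length offset its log2 fold change was -0.43 (adjusted p = 0.307), still lower in both KO libraries. Kdm2b, the CpG-binding subunit of the same complex, had 9.94 and 8.58 FPKM in KO and 6.81 and 8.22 FPKM in WT, and the fitted log2 fold change was 0.29 (SE 0.24, adjusted p = 0.580 in edgeR). It overlapped in scaled counts.

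The enzymes that remove H3K27 methylation were lower in KO on average, mostly by 1 WT library. Kdm6b, which encodes JMJD3, had 10.1 and 12.1 FPKM in KO and 19.9 and 12.6 FPKM in WT, and its log2 fold change was -0.53 (SE 0.27, adjusted p = 0.393 in edgeR). The values of the KO libraries and WT replicate 2 were near each other, and WT replicate 1 was high. Without WT replicate 1 the value was -0.18, and with the length offset -0.28. Kdm6a, which encodes UTX and escapes X inactivation in females, had 6.1 and 5.42 FPKM in KO and 10.6 and 5.58 FPKM in WT. Its log2 fold change of -0.45 (SE 0.34, adjusted p = 0.551 in edgeR) turned to 0.07 without WT replicate 1.

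Kdm6a has to be read beside the sex pattern of the libraries. The X-linked silencing RNA Xist had 10.5 and 0.05 FPKM in KO replicates 1 and 2, against 54.7 and 0.01 FPKM in WT replicates 1 and 2, while the Y-linked homologue Uty was listed in replicates 2 alone, at 4.48 FPKM in KO and 5.58 FPKM in WT. So each group held 1 library of each pattern, and Kdm6a was high in WT replicate 1 but not in KO replicate 1. The summed level of Kdm6a and Uty was 6.1 and 9.9 FPKM in KO and 10.6 and 11.2 FPKM in WT, and KO replicate 1 stood apart. The list has 3 X-linked genes, Rbbp7, Bcor and Kdm6a, and they did not share a direction in fitted values, with 0.17, -0.65 and -0.45. Sex pattern and replicate number cannot be told apart, and each pair holds 1 library per group.

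**Figure D5:**
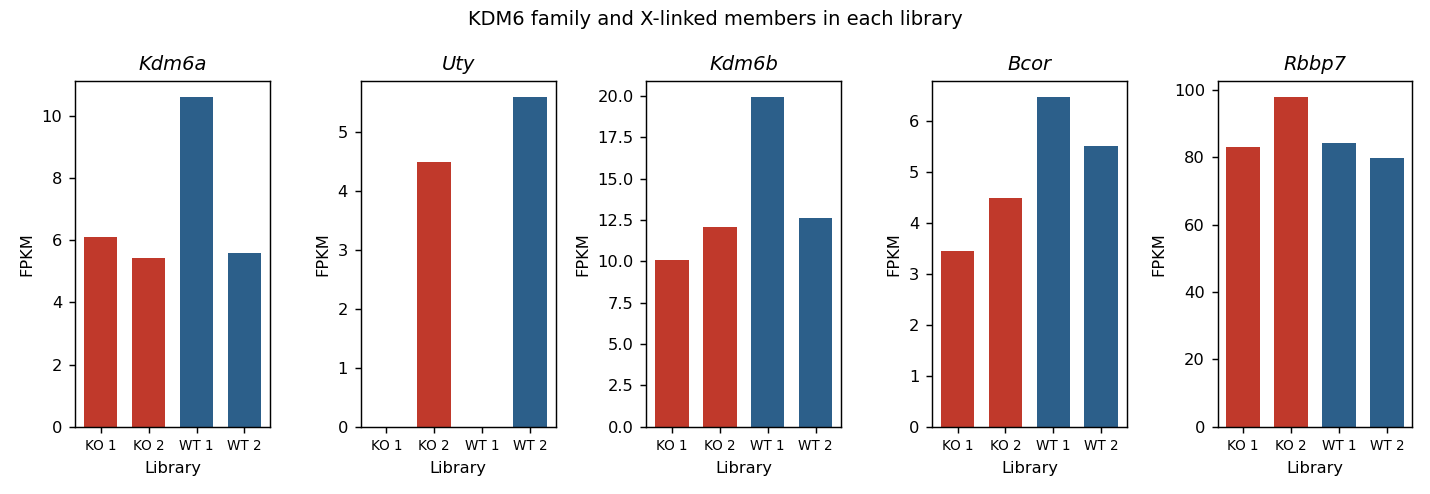
FPKM (y axis, linear and different for each gene) of Kdm6a, Uty, Kdm6b, Bcor and Rbbp7 in KO 1, KO 2, WT 1 and WT 2 (x axis, red KO, blue WT). Kdm6a is near 6 FPKM in all libraries but WT replicate 1 at 10.6 FPKM, and Uty is not listed in the replicates 1.

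Of the H2A deubiquitinase genes, Bap1 was higher in both KO libraries. Bap1, the catalytic subunit of the Polycomb repressive deubiquitinase (PR-DUB) and a tumour suppressor, lies on chromosome 14 from 31251352 to 31259930. It had 16.2 and 16.4 FPKM in KO, against 13 and 11.5 FPKM in WT. Its log2 fold change was 0.45 (SE 0.20, 95% interval -0.03 to 0.93, adjusted p = 0.335 in edgeR), and 0.49 with the length offset. Between libraries of the same number, which no label pairs, the log2 ratios were 0.44 and 0.47. With 1 library left out the fitted value lay between 0.37 and 0.52. Asxl1, the cofactor that activates BAP1, had 7 and 10.7 FPKM in KO and 12.1 and 10.8 FPKM in WT, with KO replicate 1 low and a log2 fold change of -0.35. Asxl1 has a transcript of 6674 bases, and the length offset gave -0.13. Usp16, a deubiquitinase of H2A in mitosis and gene activation, had 15.1 and 22.2 FPKM in KO and 17.4 and 16.3 FPKM in WT, with the KO libraries on both sides of WT.

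Other genes around the Polycomb system gave no call over all genes tested. Of 29 tested Polycomb-associated genes outside the list, 14 were higher and 15 lower in KO, and their median log2 fold change was -0.03. At an unadjusted p under 0.05 in edgeR, 2 were higher and 4 lower, beside 7.08% and 8.69% of all genes tested. Among those with a mean of at least 1 FPKM, the 4 with the smallest p were L3mbtl2, L3mbtl3, Mga and E2f6. A gene below that level had the lowest adjusted p of the 29, 0.22 in edgeR. L3mbtl2, a subunit of the PCGF6 complex, had 12.2 and 9.87 FPKM in KO and 5.83 and 6.25 FPKM in WT (log2 fold change 0.91). L3mbtl3 had 1.27 and 1.61 FPKM in KO and 3.82 and 3.36 FPKM in WT (-1.29). Mga and E2f6, DNA-binding partners in the PCGF6 complex, had -0.68 and 0.72. With the length offset L3mbtl2 had 0.96, L3mbtl3 -1.25, Mga -0.25 and E2f6 0.67, and the adjusted p of the 4 in edgeR without the offset lay between 0.226 and 0.291.

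Of 13 tested genes of PR-DUB, its partners and other H2A deubiquitinases, a list that also held Uty, 3 were higher and 10 lower in KO. Their median was -0.36, or -0.14 with the length offset. Their smallest p belonged to Mbd5 (-0.85), Usp3 (-0.37), Mbd6 (-0.42) and Asxl2 (-0.39), none of which passed. With the length offset these were -0.66 for Mbd5, -0.19 for Usp3, -0.34 for Mbd6 and -0.07 for Asxl2. Of 17 trithorax methyltransferase genes, the activating counterparts of Polycomb, 5 were higher and 12 lower in KO, at a median of -0.07. The length offset turned this to 11 higher and 6 lower, at a median of 0.08. The median transcript of this list was 6784 bases. Kmt2a had -0.77 and -0.32 with the offset, Ash1l -0.78 and -0.43, Kmt2c -0.48 and 0.01, and Pagr1a 0.58 and 0.34. Of 18 SWI/SNF remodeller genes, 10 were higher and 8 lower in KO. Their median was 0.06, and the length offset gave 0.11, with 12 higher and 6 lower. The 4 with the smallest p were all on the lower side, namely Smarca2 (-0.50), Smarcc2 (-0.46), Smarcc1 (-0.45) and Pbrm1 (-0.36). With the offset they had -0.40 for Smarca2, -0.31 for Smarcc2, -0.27 for Smarcc1 and -0.06 for Pbrm1, which then overlapped between the groups.

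Genes known from textbooks as Polycomb targets were mostly too low to test, with 7 of 20 passing the filter, of which 1 was higher and 6 lower. Cdkn2b, a cell cycle inhibitor gene of the Ink4 locus, had 108 and 89.5 FPKM in KO and 59.8 and 80.7 FPKM in WT, and the fitted log2 fold change was 0.54 (adjusted p = 0.370 in edgeR) and 0.29 with the length offset. Bmp7, a secreted signalling ligand, had 2.82 and 2.52 FPKM in KO and 5.91 and 5.23 FPKM in WT (-1.02, adjusted p = 0.237 in edgeR). Cdkn1c, another cell cycle inhibitor gene, had 1.31 and 0.54 FPKM in KO and 7.58 and 1.88 FPKM in WT, high in WT replicate 1 (-2.29, adjusted p = 0.291 in edgeR). Tbx3 overlapped between the groups (-0.31).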

How the data were processed

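Per the file headers, each of the 4 deposited tables holds expected counts per gene, estimated by the authors and not normalized. Deposited FPKM and transcript length stand beside them, per the file headers. Build mm10, RSEM 1.2.12 and Bowtie2 2.2.5 are named in the submitters' processing notes. No source used here states the strand setting, so reads of overlapping antisense genes cannot be told apart. The list and its subcomplexes were chosen with earlier results of these data known.

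Expected counts were rounded and tested in R 4.3.3 with edgeR 4.0.16 (quasi-likelihood, genotype as the only term, TMM scaling, filterByExpr, Benjamini-Hochberg over 12769 genes). Levels are deposited FPKM, fold changes and group order come from TMM-scaled counts, and intervals use the fit's SE and total degrees of freedom. Replicates differed beyond counting noise, at chi-square values of 62.2 in KO and 124 in WT for each degree of freedom. Alternatives used DESeq2 1.42.0, limma 3.58.1 (trend) on FPKM as log2(FPKM + 1) or log2(FPKM + 0.1), other scaling and filters, a replicate block, each library left out, and 2 settings chosen after seeing the data, the length offset and a crossed block. A row without a gene, at most 0.000233% of counts, was left out. Of the other genes, the 4 with the smallest p at a mean of at least 1 FPKM were named per list. The tests were checked on simulated data. A further marker on the colon list is not reported here.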

Additional observations from a re-analysis of the deposited data

How the results depend on the processing

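No gene of the list passed an adjusted p of 0.05 under any of the 14 alternatives, while the count over all genes moved. That count was 1 (1 higher, 0 lower) in the edgeR test, 0 with library size alone, with limma at either pseudocount and with the length offset, 27 (19 higher, 8 lower) with no filter, 667 (235 higher, 432 lower) with DESeq2 and 9 (6 higher, 3 lower) at an adjusted p of 0.1. With 1 library left out, where the lone library is assumed to vary like the other group, it lay between 0 and 174 (0 to 41 higher, 0 to 133 lower), the 174 being without WT replicate 2. The cause was not tested.

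The replicate numbers do not pair the samples by any label. Deviations of same-numbered libraries from their group means correlated at -0.1226. With 2 libraries per group the crossed value, 0.1226, is the same number with its sign reversed and adds nothing further. The replicate block gave 116 calls (46 higher, 70 lower) and the crossed block, chosen after seeing the data, 164 (65 higher, 99 lower).

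The median log2 fold change of the list was -0.18 with library size alone, -0.18 at 50 counts in 2 libraries, -0.10 with the replicate block, -0.08 with the length offset and -0.11 to -0.08 with 1 library left out. PRC2 accessory genes had -0.04 with the block and -0.31 to -0.02 with 1 library left out. Canonical PRC1 had -0.29 at 50 counts, -0.30 with limma on log2(FPKM + 0.1), -0.21 with the length offset and -0.22 to -0.10 with 1 library left out. With 1 library left out, RING and PCGF genes had -0.28 to -0.14 and variant PRC1 0.13 to 0.42. Demethylases then had -0.83 to -0.05 and deubiquitinases -0.06 to 0.35. The genes with KO above WT without overlap then numbered 10 to 14, against 8 with all libraries. Those with KO below WT numbered 14 to 19, against 13. A rise is built into these settings, as 1 library against 2 separates by order alone more often than 2 against 2. The share over all genes was not taken there, so these counts do not show a stronger difference.

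Of 36 genes, 24 kept 1 direction in every setting. With all libraries, Aebp2 turned to 0.004 with no filter and 0.18 with the length offset. Ring1 turned to -0.002 with DESeq2 size factors, -0.02 with library size alone, 50 counts and limma, and -0.10 with the length offset. Cbx8 turned to -0.03 and -0.05 with limma, -0.01 with the block and -0.20 with the offset. Bmi1 (0.01), Pcgf5 (-0.004), Pcgf6 (-0.03) and Phc3 (0.06) turned with the offset alone. With 1 library left out, Ezh2 lay between -0.37 and 0.004, Rbbp4 -0.39 and 0.03, Aebp2 -0.21 and 0.19, Phf19 -0.63 and 0.61, Ring1 -0.04 and 0.05, Bmi1 -0.23 and 0.15, Pcgf5 -0.18 and 0.66, Pcgf6 -0.11 and 0.25, Cbx8 -0.52 and 0.47, Phc3 -0.73 and 0.07, Kdm6a -0.84 and 0.07 and Usp16 -0.06 and 0.35. The difference in paralog share, in percentage points, then lay between -0.436 and 7.95 for Ezh2, -4.39 and 3.83 for Pcgf3, -5.02 and 0.343 for Cbx2, -10.5 and 2.23 for Cbx7, -3.4 and 7.09 for Cbx8, -5.07 and 1.68 for Kdm6b and -2.84 and 2.25 for Yaf2.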

Other observations

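The deposited tables also give a transcript length per gene, averaged over its transcripts by their estimated abundance, so that it shifts when the mix of transcripts shifts. In 9 of the 36 genes it varied by over 0.5% between libraries, beside 2364 of the 12769 genes tested. Bcor had 6221 and 6154 bases in KO and 6529 and 6512 bases in WT, with 6 transcripts in the table. Kdm2b had 3745 and 3740 bases in KO and 3833 and 3906 bases in WT, with 2 transcripts. Jarid2 had 5730 and 5837 bases in KO and 5893 and 5888 bases in WT, and Phc2 had 2554 and 2552 in KO and 2569 and 2569 in WT. All 4 were shorter in both KO libraries, while Phc1 was longer, with 3820 and 3859 bases in KO and 3779 and 3804 bases in WT. Of the 2364 tested genes whose length varied by over 0.5%, 22.8% were shorter and 12.9% longer in both KO libraries. Transcript length also moved with the fold changes of all genes, and its part in these shifts was not tested.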
